A study of Gallus gallus with 4 samples.

Results

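The microRNAs mir-155, mir-181, mir-142 and mir-223, which are best known from blood cells, were followed on 4 one-colour Agilent arrays of chicken DT40 cells. They were represented by every probe other than the control spots whose name on the array begins with gga-mir-155, gga-mir-181, gga-mir-142 or gga-mir-223, where gga stands for Gallus gallus. This rule took 14 of 42034 probes under 6 names: 2 probes each for mir-155, mir-181b, mir-142-5p, mir-142-3p and mir-223, and 4 for mir-181a. The names were used as the choice, not the measured values.

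DT40 is a B lymphoma cell line from the chicken bursa, the organ in which birds make their B cells. Parental DT40 was compared with DT40 that stably expresses OsTIR1, an F-box protein by which rice senses the plant hormone auxin. Each line was harvested untreated or 6 h after 500 µM indole-3-acetic acid (IAA), the natural auxin. All cultures shared a medium with calf and chicken serum and beta-mercaptoethanol and a temperature of 38.5 °C, and IAA was added from a stock in ethanol. The sources used here do not give the promoter of OsTIR1, whether its line is 1 clone, or what untreated cultures received. The series asked whether auxin induces genes in animal cells, and each of the 4 groups is 1 array, so no value below has a replicate and the number of arrays limits its precision.

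MicroRNAs are short RNAs that are cut from a hairpin in a longer primary transcript and that lower the stability and translation of the messenger RNAs they pair with. The suffixes 5p and 3p name the strands cut from the left and right arm of a hairpin. In chickens the host transcript of mir-155, BIC, is known as a common integration site of avian leukosis virus in bursal lymphomas, and in mammals mir-155 shapes activated B cells. In mouse marrow mir-181a promotes B cell formation, mir-142 is found throughout the blood lineages, and mir-223 belongs mainly to granulocytes and other myeloid cells.

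RefSeq's names for the chicken assembly GRCg7b, used here for names and neighbours alone, list 7 microRNA genes behind the 6 names. MIR155 overlaps its host MIR155HG. MIR181A1 and MIR181B1 are next to each other, with PTPRC, the gene of the leukocyte surface phosphatase CD45, as the following gene, and both overlap LOC107053920 and LOC121113415. MIR181A2 and MIR181B2 are also neighbours and overlap NR6A1. MIR142 overlaps LOC107054776 and MIR223 overlaps LOC107053194, and neither has another microRNA gene as its neighbour. The array's name mir-181a does not say which of its 2 genes a probe was designed for, and mir-142-5p and mir-142-3p come from 1 hairpin. The sequences of the probes were not used here, so it is not known whether they read the mature strand, the hairpin or the primary transcript, nor which genomic strand. The label reports total RNA from RNeasy columns, which are made for longer RNA and recover the shortest RNAs poorly.

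All 14 probes were well above background on all 4 arrays by the scanner software's flag. Over all probes this held for 46.2%. None of the 14 carried a saturation or outlier flag. Their background-subtracted intensities ran from 154 to 694 units, against a 95th percentile of the negative control spots of at most 4.91 units on any array. Levels below are log2 of the intensity above the array's own 75th percentile, which lay between 168 and 177 units, so a level of 0 is that percentile. On this scale the 14 probes ranged from the 74.0th to the 84.9th percentile of all probes.

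Detection was the same for every other microRNA name on the array. The 230 other microRNA-named probes, under 112 names, were all well above background on all 4 arrays. Their median level was 0.98 in untreated and 1.07 in IAA-treated parental DT40, and 1.05 and 1.10 in the OsTIR1 cultures. For the 14 probes of the blood-cell microRNAs these medians were 1.25, 1.44, 1.38 and 1.37. Names of microRNAs known mainly from other tissues lay in the same band, chosen here after their values were seen. The muscle microRNAs mir-133a, mir-206 and mir-1a had mean levels over the 4 arrays of 1.65, 1.62 and 0.82. The brain microRNAs mir-124a and mir-9 stood at 0.50 and -0.04, and the liver microRNA mir-122a at 0.52. A level on these probes therefore does not separate names known from blood from names known from other tissues. Different probes also bind with different strength, so levels of different names are given side by side and are no measure of relative amount.

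Probe A_87_P008662 for mir-155 gave 364 intensity units in untreated and 371 in IAA-treated parental DT40, and 393 in untreated and 385 in IAA-treated OsTIR1 cells. Values below keep this order of the 4 arrays. Intensity units are before scaling between arrays, whereas levels and log2 differences are after it, so small differences can point opposite ways. Its partner A_87_P008663 gave 336, 335, 367 and 358 units. Both probes were thus slightly brighter in the OsTIR1 line, at levels of 1.20 and 1.20 against 1.05 and 1.14 for A_87_P008662, and of 1.10 and 1.09 against 0.93 and 0.99 for A_87_P008663. With IAA, A_87_P008662 differed by 0.10 on the log2 scale in parental DT40 (95% interval -0.31 to 0.50) and by 0.00 in the OsTIR1 line (-0.40 to 0.40). Between the lines it differed by 0.15 without IAA (-0.25 to 0.55) and by 0.06 with IAA (-0.35 to 0.46). These intervals come from the scanner software's error estimate of about 10% per spot and cover no variation between cultures. Among the 118 microRNA names, ranked by mean level over their probes, mir-155 was at place 59, near the middle. No probe on the array carries the name MIR155HG here, so the host transcript was not analysed.

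For mir-181a the 4 probes fell into pairs with consecutive probe numbers. A_87_P008576 gave 472, 481, 513 and 482 units, and A_87_P008577 gave 459.8, 487, 489.7 and 543. The other pair was dimmer on every array, with 269, 272, 273 and 301 units for A_87_P008540 and 243, 269, 280.04 and 258 for A_87_P008541. The mean level of the pairs over the 4 arrays was 1.52 and 0.66. Within each of these pairs the probes were no more than 0.22 apart in log2 on any array, so the 2 pairs of this name were further apart than the probes within them. Whether the pairs stand for the 2 genes of mir-181a was not tested.

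With 75th percentile scaling the IAA differences of mir-181a in parental DT40 were 0.08 for A_87_P008540 and 0.22 for A_87_P008541. For A_87_P008576 and A_87_P008577 they were 0.10 and 0.15, and each interval includes 0. With normexp correction that of A_87_P008576 was -0.01. In the OsTIR1 cultures the sign depended on the probe. In the OsTIR1 line A_87_P008540 and A_87_P008577 were 0.17 and 0.18 higher with IAA (-0.23 to 0.57 and -0.22 to 0.58), whereas A_87_P008541 and A_87_P008576 were 0.09 and 0.06 lower (-0.49 to 0.31 and -0.46 to 0.34), which median scaling turned to 0.01 and 0.04 higher. With 75th percentile scaling 1 probe of each pair stood on each side of 0 in this line, and each of these intervals includes 0. Other probes within 10 rows and 10 columns on the array surface had median IAA differences in this line. These were 0.12 and 0.06 around A_87_P008540 and A_87_P008577, and -0.01 and -0.03 around A_87_P008541 and A_87_P008576. The part of array position in these differences was not tested. Without IAA, A_87_P008541 was 0.25 higher in the OsTIR1 line than in parental DT40 (-0.15 to 0.65). This was the largest of the 56 differences computed for the 14 probes, a 1.19-fold difference, and its partner A_87_P008540 differed by 0.06 (-0.34 to 0.47). Probes around A_87_P008541 and A_87_P008540 had median line differences of 0.06 and -0.12. After subtraction of these medians the 2 partners differed between the lines by 0.184 and 0.179. For A_87_P008576 and A_87_P008577 the line differences without IAA were 0.16 and 0.13 before such a subtraction and 0.11 and 0.19 after it. For IAA in the OsTIR1 line partners kept opposite signs after it. The values were 0.05 and -0.08 for A_87_P008540 and A_87_P008541, and -0.03 and 0.12 for A_87_P008576 and A_87_P008577. The part of array position was not tested here either.

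The mir-181b probe A_87_P008574 read 410.0, 448, 445 and 431 units. A_87_P008575 read 455, 465, 450.4 and 479. The groups overlap on both probes, and the array with the highest reading differed between them. With IAA the probes differed by 0.20 and 0.10 in parental DT40 and by -0.02 and 0.12 in the OsTIR1 line. Between the lines they differed by 0.16 and 0.03 without IAA and by -0.05 and 0.04 with it. Half-widths of the intervals were 0.40 throughout.

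By their names on the array, both arms of the mir-142 hairpin have their own probes. For mir-142-5p, A_87_P008490 gave 436, 467, 484 and 439 units, and A_87_P008491 gave 429.5, 469, 487 and 467. On these probes untreated parental DT40 was lowest and the untreated OsTIR1 line highest. For mir-142-3p, A_87_P008488 gave 157, 161, 163 and 155.1 units and A_87_P008489 gave 154, 166, 165 and 159. On the scaled log2 levels these probes spread over 0.10 and 0.18, against 0.19 and 0.22 for the 5p probes. After scaling, untreated parental DT40 was lowest on both 3p probes as well. The mean level was 1.43 for the 5p probes and -0.10 for the 3p probes, at places 32 and 117 of the 118 microRNA names. Since the 2 probes under each arm's name agree, the separation is a property of the probes of these names and not of single spots. Whether it reflects the amount of RNA or the binding of the probes was not tested.

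With 75th percentile scaling the IAA differences of mir-142 ran the same way on its 4 probes within each line. In parental DT40 they were 0.17 and 0.20 for the 5p probes and 0.10 and 0.18 for the 3p probes. In the OsTIR1 line they were -0.11 and -0.03 for the 5p probes and -0.05 and -0.03 for the 3p probes, of which all but the first turned positive with median scaling. The widest of these 8 intervals, for A_87_P008488 in parental DT40, reached from -0.31 to 0.51. Without IAA the line differences were 0.19 and 0.22 for mir-142-5p and 0.10 and 0.14 for mir-142-3p. With IAA they were -0.09 and -0.01, and -0.05 and -0.07. Each interval again includes 0.

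Among the 6 names mir-223, known from myeloid cells, had the highest readings. A_87_P008596 gave 654, 597, 681 and 662 units. A_87_P008597 gave 632, 642, 694 and 693. Both probes were brighter in both OsTIR1 cultures than in both parental ones, by 0.10 and 0.18 without IAA and by 0.15 and 0.11 with IAA on the log2 scale. The 4 intervals reached from -0.30 to 0.58 without IAA and from -0.29 to 0.55 with it. With IAA the probes disagreed in sign in parental DT40, at -0.06 and 0.09, and differed by -0.01 and 0.03 in the OsTIR1 line. A_87_P008597 lies in a part of the surface where unusually many otherwise dark probes were above background on the untreated parental array. Among probes not above background on the 3 remaining arrays, 11.8% were above it on that array in this part and 11.2% in the neighbouring part, against at most 1.89% in the other 14 parts. None of the other 13 probes lies in either of these parts. Probes above background within 10 rows and 10 columns of A_87_P008597 had median differences of 0.01 for IAA in parental DT40. Between the untreated lines their median was also 0.01. The part of array position in the readings of A_87_P008597 was not tested.

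Probes with consecutive numbers under a name lay close together, whereas the 2 pairs of mir-181a did not. The 7 pairs of consecutive probes under these names gave 28 gaps between partners over the 4 arrays, with a median size of 0.053 and a largest size of 0.22 on the log2 scale. None reached 1.5-fold. The other 115 microRNA pairs had a median gap of 0.086, and 4 of their 460 gaps reached 1.5-fold. In 2 of the 7 pairs, those of mir-155 and mir-181b, the order of the partners was the same on all 4 arrays, as it was in 61 of the other 115 pairs. Differences between arrays were a median of 0.079 apart between partners, against 0.068 for the other microRNA pairs, with a largest disagreement of 0.26 for the dimmer mir-181a pair under IAA in the OsTIR1 line. This disagreement is slightly larger than any difference of these probes between 2 arrays compared.

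Over the 14 probes, no difference reached 1.5-fold in any comparison. With IAA in parental DT40 this was 0 of 14, against 1.91% of the 19492 probes well above background on both arrays. With IAA in the OsTIR1 line it was 0 of 14 against 2.19% of 22873 probes. Between the lines it was 0 of 14 against 6.39% of 19709 probes without IAA and 5.86% of 20604 with IAA. At such backgrounds a count of 0 among 14 probes is close to what the array gives as a whole. Brighter probes reached 1.5-fold less often. Of the 9718 brighter probes among the 19436 above background on all 4 arrays, 13 were higher and 4 lower with IAA in parental DT40. In the OsTIR1 line these counts were 0 and 2. Between the lines they were 115 and 106 without IAA and 106 and 104 with it. None of the 56 intervals excluded 0, and they reached from -0.51 to 0.65. Their half-widths were 0.40 to 0.41, set by a software error of 10.0 to 10.3% on every spot of these probes. No smaller difference could therefore have an interval that excludes 0. Partner probes disagreed in their differences by a median of 0.079, so the half-width is not a measured detection limit.

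The small differences had a pattern over the arrays that the other microRNA names shared. Untreated parental DT40 gave the lowest level for 13 of the 14 probes, the exception being A_87_P008596 of mir-223. This was so for 78.7% of the 230 other microRNA-named probes and for 27.1% of the 19436 probes well above background on all 4 arrays. With IAA in parental DT40 the median difference was 0.10 for the 14 probes, 0.11 for the other microRNA-named probes and -0.01 for the 19436. Between the untreated lines these medians were 0.16, 0.11 and 0.01. These comparisons share the untreated parental array. In the comparisons without that array the medians of the 14 probes were -0.01 for IAA in the OsTIR1 line and 0.02 between the lines with IAA. The latter values changed sign under other scalings. Spike-in control transcripts, measured on 7 probes, had median differences of at most 0.03 in size in any comparison, and the 9718 brighter ones of the 19436 probes had a median of 0.00 for IAA in parental DT40. A common offset of the microRNA-named probes on 1 array and a change in the cells cannot be told apart with 1 array per group.

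In the limma model with line and IAA as additive terms, fitted to 23100 probes with 1 residual degree of freedom, none of the 14 probes was called for either term. The share called over all probes was 0% for IAA and 0% for the line. For IAA the smallest p among the 14 was that of A_87_P008577 of mir-181a, with an effect of 0.17 (SE 0.07, unadjusted p = 0.0947, Benjamini-Hochberg adjusted p = 0.955 in limma). It also had the smallest p for the line, with an effect of 0.14 (SE 0.07, unadjusted p = 0.124, adjusted p = 0.374 in limma). Before adjustment 0 of the 14 had a limma p under 0.05 for either term, whereas 1125 of all 23100 probes did for IAA and 4333 for the line. With median scaling 3 of the 14 had one for IAA, against 1839 of all probes. The 3 are probes of mir-181a and mir-181b, and their adjusted p was 0.416 in limma. With normexp background correction the model called 0.472% of all probes for IAA and 12.1% for the line, and again none of the 14. At unadjusted limma p under 0.05, 1 of the 14 passed for each term, against 927 of 23100 probes for IAA and 5209 for the line. With limma's trend and robust options these were 1 of the 14 for IAA and 2 for the line, against 1169 and 5965 of all probes. In this model each line serves as a repeat for IAA and each treatment as a repeat for the line.

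The profiles most like those of the 14 probes were sought among 266 other probes above background on all arrays, 243 with a microRNA name and 23 with a gene name. Likeness was the root mean square difference of the mean-centred levels over the 4 arrays. The nearest probes of mir-155 were of mir-34b and mir-219, those of mir-181b of mir-383 and mir-30b, and those of mir-223 of mir-211 and mir-219. For mir-142-5p they were of mir-499 and mir-15b, for mir-142-3p of mir-133a and mir-302b, and for mir-181a of mir-103, mir-187 and mir-365. The 3 nearest of each probe were all microRNA-named, at distances from 0.0031 to 0.037. No probe had its own partner as the nearest. As the profiles are flat to within the spot error, these neighbours describe 4 arrays and no more.

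Genes around the microRNAs could hardly be followed. Of 10 genes of microRNA processing, such as DICER1 and DROSHA, none has a probe with a gene name here. Of 23 regulators and mammalian targets, JUN and TGFB2 have one. JUN, an AP-1 transcription factor gene, gave 2832, 2914, 2651 and 2833 units. TGFB2, a growth factor gene, gave 238, 193, 438 and 368 units and was thus higher in both OsTIR1 cultures. Of 16 B cell markers RAG1 alone has a named probe, and of 8 macrophage and granulocyte markers TLR4 alone. Neither was well above background on any array, and the labelled B cell identity could not be checked further. Markers of T cells, red cells, thrombocytes and fibroblasts have no named probe here.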

How the data were processed

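Per the file headers, the authors deposited linear spot intensities made with Agilent Feature Extraction 10.5.1.1 on a grid of genome build galGal2, background-subtracted, detrended over the surface and not scaled between arrays. The headers place the 4 arrays on 1 slide. The deposited series table holds the same intensities times 1 constant per array, from 4.40 to 4.63, with column medians of 65.6, 58.8, 60.5 and 55.9. Its linear scale and direction follow from this match and the origin of the constants is unknown.

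Control spots (1417 of 43451) were left out. Processed intensities were scaled to each array's 75th percentile and taken to log2. Intervals (95%) come from the software's spot errors. limma 3.58.1 in R 4.3.3 fitted every probe that at least 2 arrays measured well above background, with Benjamini-Hochberg adjustment over all of them. The fit was also run on simulated data with set IAA effects that were alike in both lines. That simulation held no interaction and no offset between arrays, so it does not bear on either. Alternatives were median, quantile and cyclic loess scaling, normexp correction (offset 50) with quantile scaling, the series table, other filters, other detection calls and limma's trend and robust options for the prior. normexp used median spot signals, which the scanner output holds in place of the planned mean signals. A probe name was taken as the array gives it. RefSeq names (GRCg7b) were matched through 51 probes to 50 gene symbols.

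Every probe of the 6 names is reported, other microRNA names only as the 3 nearest profiles of a probe unless said otherwise. Groups follow the sample titles. The probes and lists were chosen with earlier results of these data known.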

Additional observations from a re-analysis of the deposited data

Results flagged for a closer look

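Of the 14 probes, 9 were higher with IAA in parental DT40 and lower with IAA in the OsTIR1 line, which is an opposite direction in the lines with 1 array per group. With median scaling this count was 1, and under the other 4 scalings or sources it was 8 or 9. The difference between the lines was not tested, since a model with an interaction has no residual degree of freedom, and none of the 9 had an interval that excluded 0. Of the other 230 microRNA-named probes, 84 (36.5%) ran the same way, and the share over all probes was not computed. Among the 14, 4 were higher in both lines and 1 was lower in both. In the OsTIR1 line the differences of the 9 lay between -0.11 and -0.00175. After subtraction of the median difference of surrounding probes, 7 of the 14 were higher and 7 lower with IAA in that line. Before it, 4 were higher and 10 lower. That subtraction was chosen after seeing the data. The parental differences rest on the untreated parental array. There 205 (89.1%) of the 230 were also higher with IAA, against 47.8% of all probes well above background on both arrays.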

How the results depend on the processing

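No paired analysis was possible because each group holds 1 sample. The count of probes at least 1.5-fold different stayed at 0 in all 4 comparisons under the 7 alternatives tried for each. Of these, only the 5 other scalings or sources could change the count. The rest altered only the background filter, which all 14 probes passed. Over the same 5 scalings or sources, the 56 single differences lay between -0.13 and 0.39. None moved by more than its own half-width, but those half-widths, 0.40 to 0.41, are wider than any of the 56 differences. Some signs did change, as for A_87_P008488 with IAA in the OsTIR1 line, from -0.05 to 0.05 with median scaling. All 14 probes also passed both other detection calls. The largest gap between partners in a comparison was 0.15 to 0.26, and 0.12 to 0.26 over the other scalings, of which all but median scaling were added after seeing the data.

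Median scaling moved the median of the 19436 probes by 0.17 for IAA in parental DT40 (from -0.01 to 0.16), to 0.10 for IAA in the OsTIR1 line and to 0.11 between the untreated lines. Medians of the 14 probes moved with it, to 0.27, 0.086 (from -0.01) and 0.26, so directions are relative to that shift. For IAA in the OsTIR1 line the median was also 0.0031 after subtraction of the local median, a choice made after seeing the data. Between the lines with IAA it was -0.0042 with quantile normalization, -0.0035 with the series table and -0.018 after that subtraction, against 0.02.

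Over all probes the additive limma model called 109 for IAA with normexp correction (0.472%) and 8 with trend and robust estimation. For the line it called 2795 (12.1%), 2970 with trend and robust estimation and 910 among probes above background on all arrays, against 0. None of the 14 probes was among these calls. Of the 16 combinations of term and setting, those not named here called no probe on the array. They could therefore not have called any of the 14. The cause of these changes was not tested. The spot error of about 10% and the single array per group limit these values. The lowest reading of the 14 probes on any array was 154 units, against at most 4.91 for the 95th percentile of negative controls.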
